A study of Mus musculus with 16 samples.

Results

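The genes described here are 36 nucleolar factors of ribosome biogenesis and rRNA synthesis, chosen by name from the gene table of a study of sorafenib in mouse liver tumor cells. All 36 were among the 40840 genes of the table and among the 20444 that passed the filter on low counts. Sorafenib, a multikinase inhibitor used against hepatocellular carcinoma, had been given at 8.5 µM to p53-/-; Myc hepatoblasts for 48 hours or 7 days, and DMSO, its vehicle, for the same times. Each of the 4 groups held 4 libraries, 16 in all. The cells are 1 mouse line that lacks p53 and overexpresses Myc, grown in culture, and DMSO and sorafenib groups share both alterations, so there is no line with normal p53 or Myc beside them. The labels number the replicates without stating separate cultures, and the p-values therefore measure the spread between these libraries, which may be technical.

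Ribosomes are made in the nucleolus. RNA polymerase I (Pol I) transcribes one long precursor, which a series of protein and RNA machines folds, modifies and cuts into the mature rRNAs of both subunits while ribosomal proteins are added. Small nucleolar RNAs guide 2'-O-methylation (box C/D particles) and pseudouridylation (box H/ACA particles), the small subunit processome builds the precursor of the small subunit, and other assembly factors, among them the PeBoW complex of Pes1, Bop1 and Wdr12, build that of the large subunit. Many of these genes are textbook targets of the transcription factor Myc, and growing tumor cells keep them high. Positions in parentheses below are on build GRCm39 and cover the whole gene. The 36 genes fall into 6 roles: 5 of Pol I transcription, 9 of the small subunit processome, 3 of box C/D particles, 5 of box H/ACA particles with their chaperone Nolc1, 10 of large subunit assembly, and 4 abundant nucleolar proteins.

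The balance of higher and lower genes turned between the 2 times. After 48 hours of sorafenib 18 of the 36 genes were higher than with DMSO, against 26.9% of all genes tested, among them 7 of 9 small subunit processome genes, and 8 were lower, against 27.7%. After 7 days 27 were lower (27.9% of all genes) and 1, Nop14, was higher (28.9%). In DMSO cells 32 of the 36 genes were higher at 7 days than at 48 hours (23.9% of all genes) and 1 lower (25.5%), whereas in sorafenib cells 10 were higher (17.5%) and 6 lower (22.3%). The lower values with sorafenib at 7 days thus stood beside a level in DMSO cells that was higher than at 48 hours. No gene of the 36 differed between sorafenib and DMSO by a factor of 2 or more at either time.

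Expression of these genes was high, with raw counts from 658 for Polr1c in a single library up to 100768 for Ncl. Normalized counts, used throughout for levels, are read counts scaled to a common library size. Per kilobase of exon, the only scale on which genes are compared with each other, Npm1 (8243 normalized counts per kilobase) and Ncl (5833) stood far above the other genes in DMSO cells at 48 hours, which ranged from 153 for Wdr12 and Rrp12 to 1785 for Nolc1. Exon length here is the union of all annotated isoforms, which lowers the value of genes with many isoforms.

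Total counts per library ranged from 16586254 to 30828427. One library, sorafenib for 48 hours replicate 2, stood apart. In genome order, the ratio of its counts to those of the other replicates dropped at Mycbp2 on chromosome 14. From there through chromosomes 15 to 19 and X, the ratio was 0.604 times that of the genes before. The largest step in the other 15 libraries was 0.07 (log2). The region holds 3908 of 18033 tested genes with a position and 10 of the 36: Polr1c, Rrn3, Wdr43, Rrp12, Dkc1, Nolc1, Bop1, Wdr74, Noc3l and Rrp1b. For these 10 genes, log2 fold changes at 48 hours without this library are given in the text. They are not given for Myc, for genes of other lists or for most differences between times. Of the hepatoblast markers, Dlk1 had at least 3488 counts and Krt19 at least 865 in every library, while Hnf4a, which hepatoblasts and hepatocytes express, had 0 counts in all 16, Alb at most 1 and Afp at most 14, so these defining markers were absent or nearly so. The summed level of 17 hepatoblast markers, most of it Dlk1, was 35540 to 36908 normalized counts with DMSO and 13515 to 15522 with sorafenib at 48 hours, and 19044 to 20842 and 7275 to 7598 at 7 days. Foxa2 and Sox9, of the same list, went the other way, from 200 to 251 and 204 to 288 raw counts with DMSO to 524 to 695 and 454 to 700 with sorafenib at 48 hours. For 5 stellate and fibroblast markers, nearly all of it Col1a1, the sums were 44338 to 46950 and 81776 to 88666 at 48 hours, and 46335 to 48659 and 52973 to 54886 at 7 days. Of the 4 tested, 2 were higher and 1 lower with sorafenib at 48 hours, and 1 higher and 3 lower at 7 days. Pdgfrb fell from 729 to 818 raw counts with DMSO to 434 to 570 with sorafenib at 7 days. Dcn fell from 4382 to 5889 to 911 to 1257. Lrat, which defines stellate cells, and Adgre1, which defines macrophages, were at 0 in every library. The part of these shifts in the results was not tested. In bulk RNA, fewer cells of a kind and less RNA per cell cannot be told apart, and all values are relative to the other mRNAs of the same library.

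Reads on Trp53, which encodes p53, were present in all groups (1767 to 4147 normalized counts), so they do not by themselves show the deletion. Myc was lower with sorafenib. Its normalized counts were 13003, 12748, 13085 and 13970 with DMSO and 10188, 6390, 9564 and 9754 with sorafenib at 48 hours, a log2 fold change of -0.56 ± 0.09 (SE, n = 4 per group, FDR = 2.57e-05). At 7 days they were 15156, 15245, 14587 and 14301 with DMSO and 10769, 10416, 10448 and 10071 with sorafenib, a log2 fold change of -0.51 ± 0.09 (FDR = 6.8e-05). Sorafenib libraries lay below all DMSO libraries at both times, and so did the other 3 sorafenib libraries at 48 hours without replicate 2, whose value was the lowest and in whose lowered region Myc lies.

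**Figure D1:**
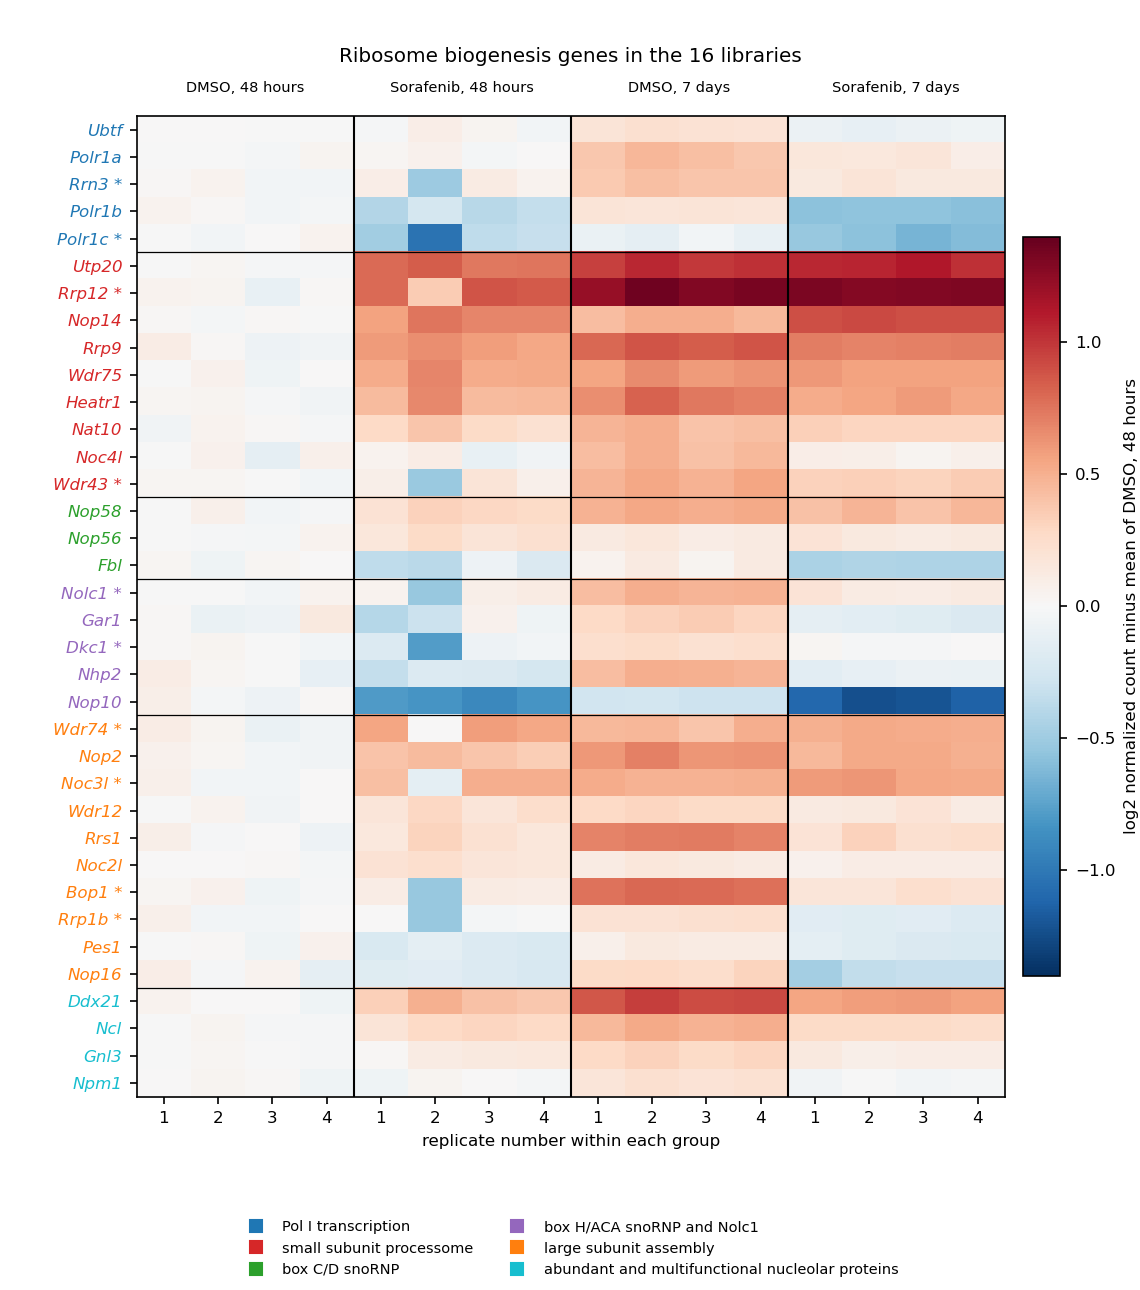
Log2 normalized count of each gene in each of the 16 libraries, minus the mean of the 4 DMSO libraries at 48 hours; rows are genes coloured by role, columns are replicates, and an asterisk marks the 10 genes in the region lowered in sorafenib 48 hours replicate 2. Columns of DMSO at 7 days are red for 34 of the 36 genes, Polr1c and Nop10 being the others, and the second sorafenib column at 48 hours is lower than the other 3 sorafenib columns of that time in every row with an asterisk.

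The level of the whole group was first followed library by library, as the median over the 36 genes of the log2 level relative to DMSO at 48 hours. It was 0.10, 0.08, 0.15 and 0.13 in the sorafenib libraries at 48 hours, 0.43, 0.48, 0.40 and 0.44 in DMSO at 7 days, and 0.16, 0.14, 0.16 and 0.13 in sorafenib at 7 days. DMSO at 7 days lay above every other library, and the sorafenib groups of both times overlapped. Over the 26 genes outside the lowered region they did not, with 0.154 to 0.247 at 48 hours and 0.114 to 0.148 at 7 days. The 0.247 was that of replicate 2, which stood above the others there (0.154, 0.170 and 0.162). The gap between the groups, from 0.148 to 0.154, was narrow. The 26 genes outside the lowered region gave group means of 0.18 ± 0.04, 0.42 ± 0.04 and 0.14 ± 0.01 (SD, n = 4) in the same order. As a share of all counts, the 36 genes took 0.989% ± 0.0131 with DMSO and 1.04% ± 0.0170 with sorafenib at 48 hours, and 1.26% ± 0.0215 and 1.10% ± 0.00427 at 7 days (SD, n = 4 each). Ribosomal protein genes took 4.58% ± 0.151 and 3.68% ± 0.0383 at 48 hours and 3.55% ± 0.0424 and 3.41% ± 0.0461 at 7 days (SD, n = 4 each).

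**Figure D2:**
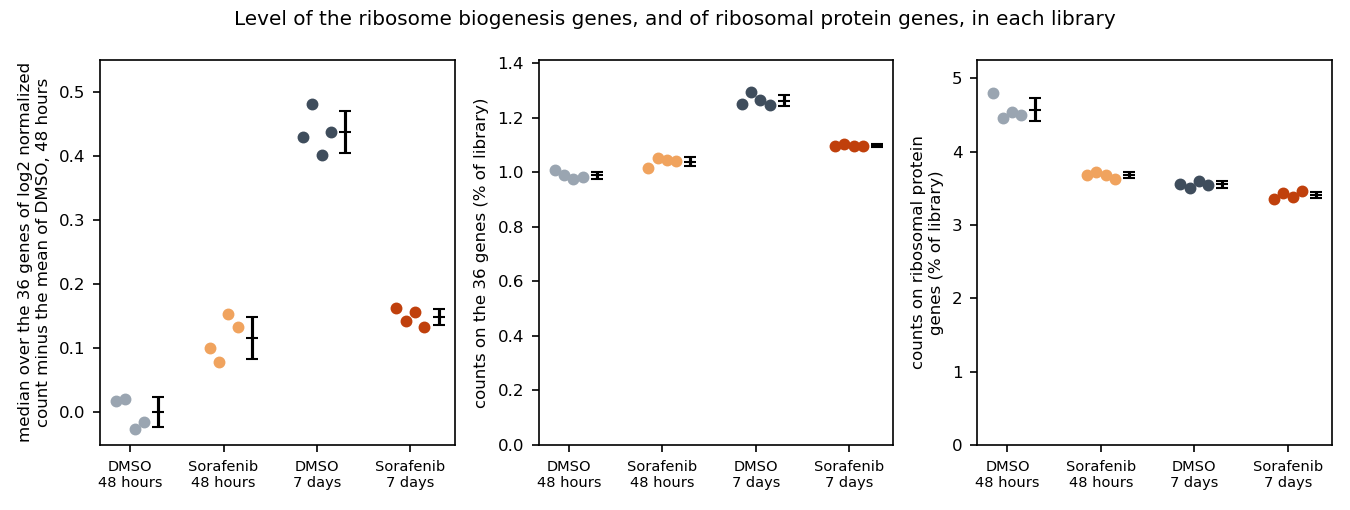
Left, median over the 36 genes of the log2 normalized count relative to the mean of DMSO at 48 hours; middle and right, percent of all counts on the 36 genes and on ribosomal protein genes. Points are libraries, and bars beside them give the mean and SD of 4; the 4 DMSO libraries at 7 days lie highest in the left (0.40 to 0.48) and middle panels, while DMSO at 48 hours lies highest in the right panel.

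Sorafenib against DMSO at 48 hours asked for the early response. Of the 36 genes 18 were higher (26.9% of all genes) and 8 lower (27.7%; edgeR's quasi-likelihood test, Benjamini-Hochberg FDR under 0.05). Their median log2 fold change was 0.06 beside -0.05 over all tested genes. Libraries did not overlap for 15 genes higher with sorafenib and 7 lower (23.1% and 24.9% of all genes). Without sorafenib replicate 2, 22 of the 36 were higher (28.5% of all genes in that fit) and 8 lower (28.6%), the added calls being Rrn3 (log2 fold change 0.09), Wdr43 (0.12), Nolc1 (0.08) and Bop1 (0.11), all in the lowered region and none called with it. Genes with long exons tended to be higher: the median log2 fold change was 0.17 over the 1024 longest protein-coding genes with a mean level of 100 or more (13.4 to 45.1 kb of exon) and -0.11 over the 1025 shortest (0.558 to 2.98 kb), and among the 36 it was 0.24 in the 18 longer and -0.02 in the 18 shorter genes. At 7 days the medians were 0.03 over the longest and -0.13 over the shortest genes, and -0.18 and -0.36 in the longer and shorter of the 36. For the log2 fold change at 7 days minus that at 48 hours they were -0.15 and -0.03, and -0.38 and -0.29. Over time in DMSO they were 0.10 and -0.02, and 0.43 and 0.45. The part of length in the results was not tested.

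At 7 days, 27 of the 36 genes were lower with sorafenib (27.9% of all genes) and 1 was higher (28.9%). The median log2 fold change was -0.23 beside 0.02 over all genes. The libraries of the 2 treatments did not overlap for 29 genes lower with sorafenib and 2 higher (28.4% and 28.5% of all genes). The change between the times was tested directly, as the log2 fold change at 7 days minus that at 48 hours. It was below 0 for 27 genes (21.3% of all genes tested) and above 0 for none (15.5%), with a median of -0.33 beside 0.02 over all genes. In DESeq2 and in limma voom it was likewise above 0 for 0 genes, and at an unadjusted p under 0.05 in edgeR it was above 0 for 0, as in every direction given below as without calls in a role. Without sorafenib 48 hours replicate 2 it was below 0 for 34 (24.9% of all genes in that fit) and above for none (18.1%), Nop10 and Pes1 being the others. Both times together, 10 genes went from higher to lower, 7 from higher to no call, and 8 were lower at both times. Another 9 passed the test only at 7 days, Nop14 was higher at both and Wdr43 passed at neither. The share of all genes in each of these combinations was not computed, so these counts describe the 36 only. Each gene's spread was estimated over all groups together, the lowered library included. SEs at 7 days were 0.07 to 0.10 for genes in the lowered region and 0.03 to 0.07 for the others. For Wdr43 (lower) and Noc3l (higher) the 7 days libraries did not overlap, though neither passed. Fits to only the 2 groups compared gave 29 lower and 3 higher at 7 days (33.3% and 33.4% of all genes in that fit).

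Time itself was then compared within each treatment. In DMSO, 32 of the 36 genes were higher at 7 days than at 48 hours (23.9% of all genes tested) and Nop10 alone was lower (25.5%), with a median log2 difference of 0.45 beside -0.01 over all genes. In sorafenib, 10 were higher (17.5%) and 6 lower (22.3%), with a median of 0.04 beside 0.01. These 2 counts moved with the processing, and so did the shares of all genes. With at least 10 counts in every library, 17 were higher and 4 lower (29.1% and 29.9% of all genes in that fit). Scaling by total counts gave 15 and 4 (19.8% and 19.2%). Without sorafenib 48 hours replicate 2 they were 15 and 8 (19.4% and 25.0%). Of the 4 group means, DMSO at 7 days was the highest for 28 of the 36 genes and the lowest for 0, and DMSO at 48 hours was the lowest for 19. The order of group means was not counted over all genes, so it describes the 36 only. These comparisons share libraries with those of sorafenib against DMSO, so they are 4 views of the same 4 groups rather than separate evidence. The time in DMSO and whatever else was handled apart for the 2 times cannot be told apart.

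**Figure D3:**
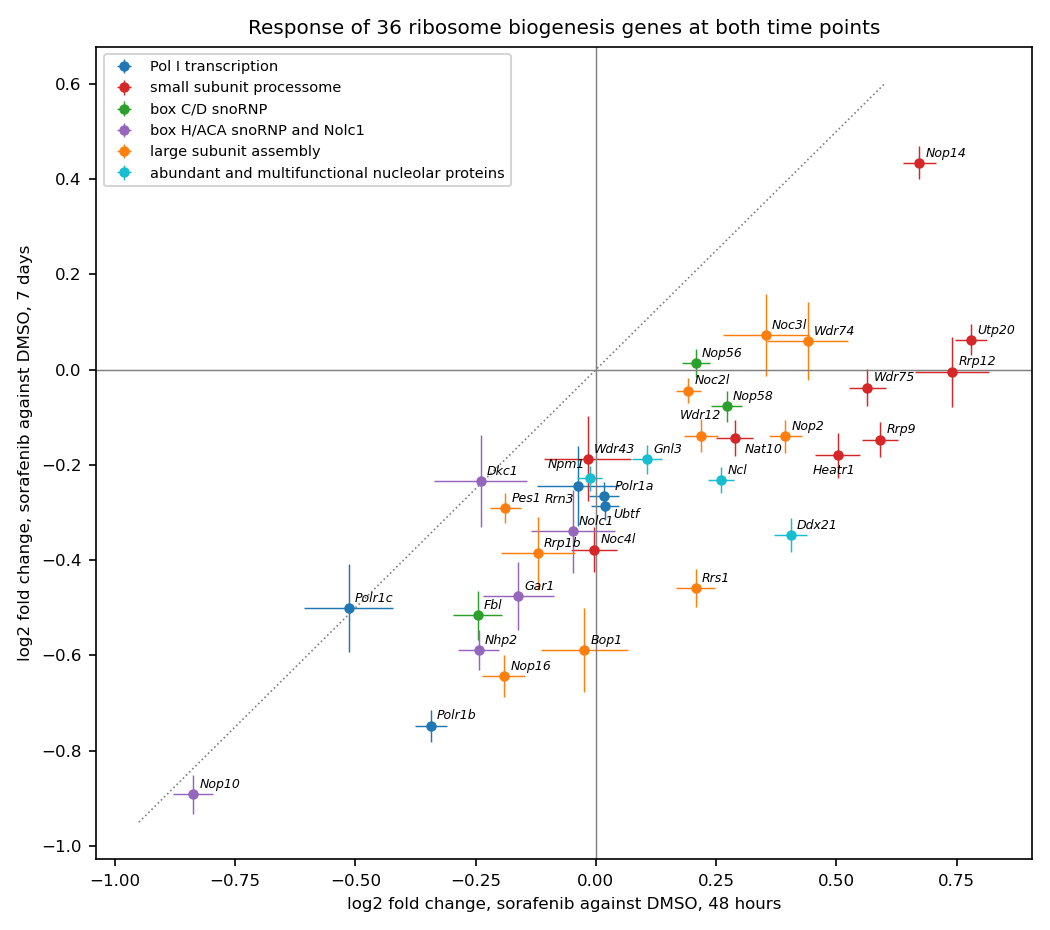
Log2 fold change of sorafenib against DMSO at 48 hours (horizontal) and at 7 days (vertical) for the 36 genes, coloured by role, with bars of ± 1 SE; the dotted line marks equal values. All but Polr1c (-0.51 and -0.50) and Dkc1 (-0.24 and -0.23) lie below that line, 7 of the 9 small subunit processome genes lie to the right, and Nop10 lies at the lower left.

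None of the 5 Pol I transcription genes was higher with sorafenib at either time, 2 were lower at 48 hours and all 5 at 7 days. For this and all counts by role below, 26.9% of all genes tested were higher and 27.7% lower at 48 hours. At 7 days the shares were 28.9% and 27.9%, and over time in DMSO 23.9% and 25.5%. Without sorafenib 48 hours replicate 2, Rrn3 was higher at 48 hours. Polr1b, the second largest subunit of Pol I (chr2:128942903-128970214, plus strand), was lower at both times, with a log2 fold change of -0.34 ± 0.03 at 48 hours (SE, FDR = 3.22e-08) and of -0.75 ± 0.03 at 7 days (FDR = 1.61e-13), and the fall was deeper at 7 days by 0.40 ± 0.05 (FDR = 1.14e-06). Polr1a, the largest subunit, which carries the active site, passed the test at 7 days (-0.27 ± 0.03, FDR = 2.6e-07) and not at 48 hours (0.02 ± 0.03, FDR = 0.676). Rrn3, the factor that carries Pol I to the rRNA gene promoter, had values of -0.04 ± 0.09 (FDR = 0.741) and -0.24 ± 0.08 (FDR = 0.0181).

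Polr1c (chr17:46554843-46559126, minus strand), a subunit shared by Pol I and Pol III, was the lowest of the role at 48 hours. Its normalized counts were 2032, 1982, 2049 and 2108 with DMSO and 1461, 995, 1595 and 1639 with sorafenib, and at 7 days 1908, 1866, 1989.7 and 1904 with DMSO and 1413, 1374, 1299.7 and 1338 with sorafenib. Every sorafenib library lay below every DMSO library at both times, and replicate 2 of sorafenib at 48 hours, in whose lowered region the gene lies, was far below the other 3. The log2 fold change was -0.51 ± 0.09 at 48 hours (FDR = 8.54e-05) and -0.38 without that library, and -0.50 ± 0.09 at 7 days (FDR = 0.000103).

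Ubtf (chr11:102195386-102210568, minus strand), the upstream binding factor that coats active rRNA genes, had the highest value of the role at 48 hours with all libraries, which was near 0. Normalized counts were 7102, 7102, 7002 and 7000.3 with DMSO and 6959.5, 7506, 7241 and 6865 with sorafenib. At 7 days they were 7997, 8209.8, 8132 and 8026 with DMSO and 6639, 6499, 6642 and 6778 with sorafenib. The groups overlapped at 48 hours and lay wholly apart at 7 days, where the log2 fold change was -0.29 ± 0.03 (FDR = 5.31e-08) against 0.02 ± 0.03 (FDR = 0.63) at 48 hours.

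The small subunit processome held the largest increases at 48 hours. Of its 9 genes 7 were higher and none lower, with a median log2 fold change of 0.56. At 7 days 4 were lower and Nop14 higher. All 9 rose over time in DMSO.

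Utp20 (chr10:88582469-88662699, minus strand), a very large scaffold protein of the processome, was the highest of the 36 at 48 hours with all libraries, while without sorafenib replicate 2 it had 0.76 and Rrp12 0.85. Its normalized counts were 3037, 3108, 3019 and 3007 with DMSO and 5266, 5488, 5067 and 5095 with sorafenib, a log2 fold change of 0.78 ± 0.03 (FDR = 6.27e-14). At 7 days they were 5886, 6320.1, 6036 and 6188 with DMSO and 6333, 6392, 6595 and 6197 with sorafenib, 0.06 ± 0.03 (FDR = 0.111). Sorafenib lay far above DMSO at 48 hours, and at 7 days both groups were higher still and overlapped, the DMSO level having risen by 1.01 ± 0.03 on the log2 scale (FDR = 6.38e-15) and that in sorafenib by 0.29 ± 0.03 (FDR = 6.1e-07).

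Rrp12 (chr19:41847867-41884649, minus strand), an assembly factor of pre-ribosomes that also takes part in their export, rose most over time in DMSO. Normalized counts at 48 hours were 1304, 1294, 1170.0 and 1270.3 with DMSO and 2180.5, 1614, 2317 and 2287 with sorafenib. At 7 days they were 2941, 3235, 3098 and 3166 with DMSO and 3130.4, 3069, 3095 and 3115 with sorafenib. The groups lay apart at 48 hours even with the lowered replicate 2 and overlapped at 7 days. The log2 fold change was 0.74 ± 0.08 (FDR = 6.9e-08) at 48 hours, or 0.85 without replicate 2, and -0.0041 ± 0.07 (FDR = 0.978) at 7 days. From 48 hours to 7 days the DMSO level rose by 1.30 ± 0.08 (FDR = 2.38e-11).

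Rrp9, a protein particular to the U3 small nucleolar RNA particle (chr9:106353162-106362623, plus strand), turned from higher to lower. It had 1778, 1675, 1584 and 1604 normalized counts with DMSO and 2500.4, 2610.0, 2492 and 2410.0 with sorafenib at 48 hours. At 7 days DMSO libraries had 2903, 3054, 2994 and 3051 and sorafenib libraries 2729, 2685, 2699 and 2729.8. The groups did not overlap at either time, in opposite order. The log2 fold changes were 0.59 ± 0.04 (FDR = 3.95e-11) and -0.15 ± 0.04 (FDR = 0.0019), a difference of -0.74 ± 0.05 (FDR = 9.25e-10).

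Heatr1, the mammalian Utp10, which is needed for pre-rRNA transcription as well as processing (chr13:12409908-12455170, plus strand) showed the same order of groups. At 48 hours it had 3729, 3777, 3636 and 3546 normalized counts with DMSO and 4976, 5834, 4999.6 and 5018 with sorafenib (0.50 ± 0.05, FDR = 1.47e-08). At 7 days it had 5766, 6501, 6121 and 5974 with DMSO and 5254, 5383, 5535 and 5339 with sorafenib (-0.18 ± 0.05, FDR = 0.0026). Sorafenib replicate 2 was the highest of the 48 hours libraries, and the groups were apart at both times.

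Nat10, which acetylates cytidines of 18S rRNA (chr2:103544162-103591697, minus strand), had 2159, 2305, 2251 and 2200.1 normalized counts with DMSO and 2705, 2917, 2687 and 2588 with sorafenib at 48 hours. The 7 days libraries had 3090.1, 3176, 2935 and 2989 with DMSO and 2803, 2743, 2737 and 2753 with sorafenib. It too was above DMSO in all 4 sorafenib libraries at 48 hours (0.29 ± 0.04, FDR = 1.75e-06) and below in all 4 at 7 days (-0.14 ± 0.04, FDR = 0.00265).

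Wdr43 (chr17:71922890-71966027, plus strand), a subunit of the complex that starts processome assembly, had the lowest value of the role at 48 hours with all libraries. Normalized counts were 5965, 5956, 5839 and 5688 with DMSO and 6207, 4102, 6653 and 6179 with sorafenib, and at 7 days 8169.7, 8522, 8225 and 8582 with DMSO and 7307, 7373, 7266 and 7473 with sorafenib. Only replicate 2 of sorafenib at 48 hours fell below the DMSO libraries, and the 7 days groups did not overlap. The log2 fold change was -0.02 ± 0.09 at 48 hours (FDR = 0.894), or 0.12 without replicate 2 (FDR = 0.000328), and -0.19 ± 0.09 at 7 days (FDR = 0.082).

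Among the other processome genes, Nop14 was the only one of the 36 higher at both times, by 0.67 ± 0.03 (FDR = 1.45e-12) and 0.43 ± 0.03 (FDR = 1.02e-09). Its partner Noc4l, with which it forms a subcomplex, had -0.0032 ± 0.05 (FDR = 0.965) at 48 hours and -0.38 ± 0.05 (FDR = 7.85e-07) at 7 days. Both rose over time in DMSO, by 0.47 ± 0.03 and 0.45 ± 0.05. Wdr75, in the same starting complex as Wdr43, had 0.56 ± 0.04 (FDR = 1.44e-10) and -0.04 ± 0.04 (FDR = 0.429).

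**Figure D4:**
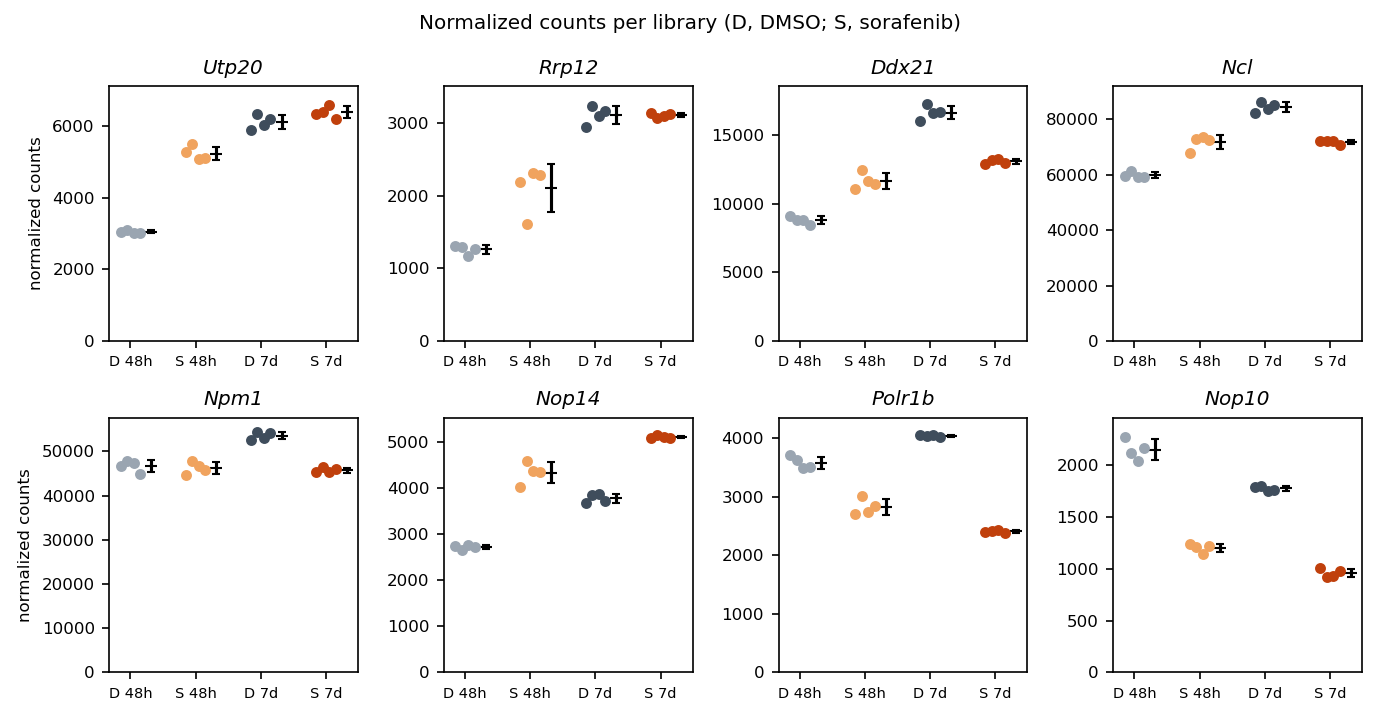
Normalized counts of 8 genes in each library (points), with mean and SD of 4 beside them; D is DMSO and S sorafenib, and axes start at 0. Utp20 and Rrp12 are high in every group but DMSO at 48 hours, Ddx21 and Ncl peak in DMSO at 7 days, Nop14 is highest in sorafenib at 7 days, and Polr1b and Nop10 are lowest there.

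Among the box C/D genes, the methyltransferase was lower at both times and both scaffold proteins were higher at 48 hours. Among the box H/ACA genes, none was higher at either time with all libraries, Nolc1 was higher at 48 hours without sorafenib replicate 2, and at 7 days all 5 were lower.

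Fbl, fibrillarin, the 2'-O-methyltransferase (chr7:27868353-27878701, plus strand), had 3985, 3734, 3970.4 and 3915 normalized counts with DMSO and 3039, 3006, 3714 and 3381 with sorafenib at 48 hours. At 7 days it had 4028, 4243, 4005 and 4254 with DMSO and 2874, 2908, 2898 and 2880.3 with sorafenib. All sorafenib libraries were below all DMSO libraries, at 48 hours by a narrow margin. The log2 fold change was -0.25 ± 0.05 (FDR = 0.000353) and then -0.52 ± 0.05 (FDR = 2.77e-08).

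Nop58, a scaffold protein of the same particle (chr1:59724106-59758203, plus strand), had 7353, 7721, 7171 and 7276 normalized counts with DMSO and 8488, 9221, 9030.3 and 8911 with sorafenib at 48 hours. The later libraries had 10344, 10746, 10460.3 and 10662 with DMSO and 9793, 10269.6, 9762 and 10196 with sorafenib. Sorafenib was above DMSO at 48 hours (0.27 ± 0.03, FDR = 3.99e-07) and just below it at 7 days (-0.08 ± 0.03, FDR = 0.0473), a call that was lost under 8 of the alternatives without a fold threshold. Its partner Nop56 had 0.21 ± 0.03 (FDR = 3.95e-06) and 0.01 ± 0.03 (FDR = 0.713).

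Nop10, the smallest core protein of the box H/ACA particle (chr2:112092271-112093764, plus strand), fell furthest of the 36 at both times. Its normalized counts were 2275, 2113, 2039.8 and 2169 with DMSO and 1240.4, 1213, 1147 and 1215 with sorafenib at 48 hours, and 1785, 1801, 1754 and 1761 with DMSO and 1003, 918, 932 and 979 with sorafenib at 7 days. The groups were wide apart, with log2 fold changes of -0.84 ± 0.04 (FDR = 5.13e-13) and -0.89 ± 0.04 (FDR = 1.91e-13). Nop10 was also the only gene that fell over time in DMSO, by 0.28 ± 0.04 (FDR = 6.24e-06).

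Nolc1, the Nopp140 chaperone that binds both kinds of particle (chr19:46064234-46073983, plus strand), had the highest value of its role at 48 hours. It had 8687, 8721, 8486 and 9054 normalized counts with DMSO and 9024, 6065, 9259 and 9433 with sorafenib, and at 7 days 11791, 12416, 12118 and 12219.8 and 10002, 9425, 9386 and 9552. Replicate 2 of sorafenib at 48 hours was far below the rest, and the other 3 were near or above the top of the DMSO range. The log2 fold change was -0.05 ± 0.09 (FDR = 0.677), or 0.08 without that library (FDR = 0.00941), and -0.34 ± 0.09 (FDR = 0.00233) at 7 days.

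Of the other core proteins of this particle, Nhp2 had -0.24 ± 0.04 (FDR = 5.76e-05) at 48 hours and -0.59 ± 0.04 (FDR = 2.02e-10) at 7 days. Gar1 had -0.16 ± 0.07 (FDR = 0.0706) and -0.47 ± 0.07 (FDR = 9.62e-06). For Dkc1, dyskerin, the pseudouridine synthase itself, the values were -0.24 ± 0.10 (FDR = 0.0433), or -0.10 without sorafenib replicate 2, and -0.23 ± 0.10 (FDR = 0.045), calls lost under 4 and 12 of the alternatives without a fold threshold. Exons of Dkc1 overlap those of Mpp1 on the other strand by 1246 bases and those of Nhp2 overlap Rmnd5b by 967, the largest such overlaps with protein-coding genes among the 36. The libraries were stranded, but the strand setting of the counting is not given in the sources used here.

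Large subunit assembly was split at 48 hours, with 6 of 10 genes higher and 2 lower, and turned at 7 days, with 7 lower and none higher. All 10 rose over time in DMSO. The 3 members of the PeBoW complex did not move together at 48 hours: Pes1 was lower (-0.19 ± 0.03, FDR = 4.04e-05), Wdr12 was higher, and Bop1 had -0.02 ± 0.09 (FDR = 0.848), or 0.11 without sorafenib replicate 2 (FDR = 0.00172). At 7 days all 3 were lower, Bop1 by 0.59 ± 0.09 (FDR = 8.72e-06) and Pes1 by 0.29 ± 0.03 (FDR = 1.26e-07) on the log2 scale.

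Wdr12 (chr1:60108944-60137926, minus strand) had 1944, 2020.5, 1876 and 1951 normalized counts with DMSO and 2186, 2377, 2193 and 2318 with sorafenib at 48 hours. After 7 days the values were 2365, 2397, 2337 and 2352 with DMSO and 2117, 2136, 2217 and 2115 with sorafenib. The order of the groups turned without overlap at either time, from 0.22 ± 0.04 (FDR = 2.24e-05) to -0.14 ± 0.03 (FDR = 0.00201).

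Wdr74, a factor needed for a late nucleolar step of the large subunit (chr19:8713156-8717988, plus strand), had the highest log2 fold change of the role at 48 hours. Its normalized counts were 1607, 1536, 1396 and 1446 with DMSO and 2190.3, 1500.0, 2236 and 2173 with sorafenib, and 2045, 2068, 1953 and 2118 with DMSO and 2108, 2159.5, 2134 and 2129.7 with sorafenib at 7 days. Replicate 2 of sorafenib at 48 hours lay within the DMSO range and the other 3 far above it. The log2 fold change was 0.44 ± 0.08 (FDR = 0.000158), or 0.56 without that library, and 0.06 ± 0.08 (FDR = 0.563) at 7 days.

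Nop16 (chr13:54731998-54738678, minus strand), a nucleolar protein of early large subunit particles, was the lowest of the role at 48 hours with all libraries, Pes1 (-0.21) lying just below it (-0.20) without sorafenib replicate 2. It had 2088, 1947, 2034 and 1802 normalized counts with DMSO and 1743, 1759, 1716 and 1676 with sorafenib at 48 hours, and 2372, 2388, 2321 and 2447 with DMSO and 1414, 1547, 1567 and 1568 with sorafenib at 7 days. The groups were close but separate at 48 hours (-0.19 ± 0.04, FDR = 0.00112) and far apart at 7 days (-0.64 ± 0.04, FDR = 1.17e-10).

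Nop2, which methylates a cytosine of 28S rRNA (chr6:125108816-125121717, plus strand), had 4229, 4142, 3942 and 3916 normalized counts with DMSO and 5339, 5529.9, 5315 and 5141 with sorafenib at 48 hours. Values at 7 days were 6192, 6608, 6236 and 6287 with DMSO and 5554, 5859.6, 5846 and 5721 with sorafenib. Sorafenib was above DMSO in every library at 48 hours (0.39 ± 0.03, FDR = 5.08e-09) and below at 7 days (-0.14 ± 0.03, FDR = 0.00153).

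Rrs1, which helps to bring the 5S particle into the large subunit (chr1:9615633-9617680, plus strand), had 2949, 2760.5, 2790.2 and 2653 normalized counts with DMSO and 3081, 3449, 3227 and 3121 with sorafenib at 48 hours. At the later time it had 4506, 4567, 4616 and 4505 with DMSO and 3183, 3487, 3254 and 3313 with sorafenib. The rise at 48 hours was small (0.21 ± 0.04, FDR = 0.000194) and the fall at 7 days larger (-0.46 ± 0.04, FDR = 4.44e-09), while the level in sorafenib differed by 0.04 ± 0.04 (FDR = 0.47) between the times.

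Noc2l and Noc3l, partners in shuttling large subunit precursors through the nucleus, were higher at 48 hours, by 0.19 ± 0.03 (FDR = 2.46e-06) and 0.35 ± 0.09 (FDR = 0.00224), the latter 0.48 without replicate 2. At 7 days they had -0.04 ± 0.03 (FDR = 0.159) and 0.07 ± 0.09 (FDR = 0.503). Rrp1b, a relative of yeast Rrp1, had -0.12 ± 0.08 (FDR = 0.198) at 48 hours, or -0.009 without replicate 2 (FDR = 0.817), and was lower at 7 days (-0.39 ± 0.08, FDR = 0.000206).

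The 4 abundant nucleolar proteins are taken last: 3 were higher at 48 hours, all 4 were lower at 7 days, and all 4 rose over time in DMSO. Ddx21, an RNA helicase that acts in both Pol I and Pol II transcription (chr10:62415574-62438099, minus strand), had the largest difference between the times among the 36 with all libraries, though without sorafenib 48 hours replicate 2 that of Rrp12 (-0.85) was larger than its own (-0.72). It had 9087, 8841, 8831 and 8415 normalized counts with DMSO and 11038, 12421, 11669.6 and 11442 with sorafenib at 48 hours, and 16049.7, 17243, 16585 and 16646 with DMSO and 12868, 13206, 13286 and 12944 with sorafenib at 7 days. The groups were apart at both times in opposite order, with log2 fold changes of 0.40 ± 0.04 (FDR = 4.31e-09) and -0.35 ± 0.03 (FDR = 3.8e-08) and a difference of -0.75 ± 0.05 (FDR = 2.68e-10). Its DMSO level rose by 0.92 ± 0.04 (FDR = 4.96e-14) on the log2 scale and its sorafenib level by 0.17 ± 0.03 (FDR = 0.000642).

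Ncl, nucleolin, which binds pre-rRNA and rRNA gene chromatin (chr1:86272441-86287208, minus strand), had 59667, 61523, 59196 and 59339 normalized counts with DMSO and 68005, 72969, 73664 and 72587 with sorafenib at 48 hours. The 7 days values were 82163, 86319.6, 83919 and 85159 with DMSO and 72144, 72284, 72218 and 70876 with sorafenib. The sorafenib libraries of both times lay between the 2 DMSO groups. The log2 fold changes were 0.26 ± 0.03 (FDR = 4.92e-08) and -0.23 ± 0.03 (FDR = 2.58e-07), and the time difference in sorafenib was 0.0015 ± 0.03 (FDR = 0.977).

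Npm1, nucleophosmin, a histone and ribosome assembly chaperone (chr11:33100281-33113267, minus strand), was the lowest of these 4 at 48 hours. Its normalized counts were 46697, 47878, 47322 and 44918 with DMSO and 44685, 47819, 46800.1 and 45854 with sorafenib, which overlapped (-0.01 ± 0.03, FDR = 0.719). At 7 days they were 52560.4, 54399, 53126 and 54168 with DMSO and 45257, 46424, 45324 and 45927 with sorafenib, which did not (-0.23 ± 0.03, FDR = 3.35e-07). Only DMSO at 7 days stood above the other groups.

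Gnl3, nucleostemin, a GTPase of proliferating and stem cells (chr14:30734389-30741364, minus strand), had 4845, 4937, 4825 and 4818 normalized counts with DMSO and 4908, 5267, 5332 and 5398 with sorafenib at 48 hours. After 7 days it had 5907, 6078, 5844 and 5980.5 with DMSO and 5338, 5121, 5202 and 5237 with sorafenib. At 48 hours the groups overlapped and the difference was small (0.11 ± 0.03, FDR = 0.0066), a call lost under 7 of the alternatives without a fold threshold. At 7 days every sorafenib library was below every DMSO library (-0.19 ± 0.03, FDR = 2.6e-05).

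Because many of these genes are known Myc targets, their promoters were searched for CACGTG, the canonical E-box bound by Myc and Max, which reads the same on both strands. RefSeq promoter sequences (build GRCm38.p6, 250 bases before to 50 after the start site) matched 31 of the 36 genes. The motif was in 5 of them (16.1%): Nop2, Rrn3, Utp20, Pes1 and Wdr43. It was in 17.3% of the promoters of 127 other ribosome biogenesis genes, 12.5% of those of 8600 tested genes whose mean was 100 normalized counts or more and 8.09% of all 27025 promoters. The motif is shown in capitals, 5' to 3' on the gene's strand, with 100 bases before the start site for the 2 genes that carry it there and with 10 flanking bases, or as many as the window holds, for the 3 genes that carry it at or after the start.
Nop2 (chr6:125131783-125131882, plus strand): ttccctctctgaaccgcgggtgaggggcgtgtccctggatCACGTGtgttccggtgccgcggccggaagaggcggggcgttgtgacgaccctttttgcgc
Rrn3 (chr16:13780599-13780698, plus strand): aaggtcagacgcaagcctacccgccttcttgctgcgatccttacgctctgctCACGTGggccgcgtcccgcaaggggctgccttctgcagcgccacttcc
Utp20 (chr10:88826765-88826787, minus strand): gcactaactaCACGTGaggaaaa
Pes1 (chr11:3963967-3963992, plus strand): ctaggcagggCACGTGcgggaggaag
Wdr43 (chr17:71616222-71616247, plus strand): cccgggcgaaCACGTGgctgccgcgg

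Rrn3 carries a further CACGTG upstream of the stretch shown. The 5 genes with the motif did not share 1 response. At 48 hours Utp20 and Nop2 were higher (0.78 and 0.39), Pes1 was lower (-0.19), and Wdr43 and Rrn3 were near 0 with all libraries. At 7 days Rrn3, Nop2 and Pes1 were lower, and all 5 rose over time in DMSO, as did 23 of the 26 genes whose promoter window holds no CACGTG. A match of these letters is a description of the window and not a measured binding site.

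The wider pathway, in lists that hold none of the 36, is given by counts of calls, and lowest and highest refer to genes whose mean was 100 normalized counts or more. Of 153 other ribosome biogenesis genes, 67 were higher and 40 lower at 48 hours (26.9% and 27.7% of all genes tested). At 7 days 26 were higher and 84 lower (28.9% and 27.9%). In DMSO 111 were higher at 7 days than at 48 hours and 14 lower (23.9% and 25.5%). The same shares of all genes stand beside the counts of the lists below. The median log2 fold changes of these 153 were 0.07 at 48 hours and -0.17 at 7 days, and 0.31 over time in DMSO.

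Small subunit factors other than the 36 were higher for 27 and lower for 5 of 47 genes at 48 hours, and higher for 7 and lower for 26 at 7 days. At 48 hours the log2 fold change was 0.89 for Nol10, a processome subunit (FDR = 7.64e-13), and 0.78 for Esf1, an 18S maturation factor (FDR = 7.44e-13), while the helicase Ddx47 had -0.27 (FDR = 4.88e-07) and Rcl1, in the region lowered in 1 library, -0.26 (FDR = 0.017). At 7 days Emg1, a methyltransferase of 18S rRNA, had -0.49 (FDR = 8.48e-09) and Bysl, bystin, -0.48 (FDR = 3.25e-06). The kinase Riok3 (0.38, FDR = 0.00166) and Ngdn (0.32, FDR = 9.51e-07) were on the other side.

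Other large subunit factors were higher for 25 and lower for 9 of 50 genes at 48 hours, and higher for 5 and lower for 30 at 7 days. Mdn1, the giant ATPase that remodels large subunit precursors, had 0.83 (FDR = 7.53e-13) and Rbm28 0.75 (FDR = 6.1e-13) at 48 hours. Pelp1, part of a complex that works with Mdn1, was lower at both times, with -0.61 (FDR = 1.51e-12) and -0.73 (FDR = 7.62e-14), and Nop53 was lower at 48 hours (-0.45, FDR = 1.37e-10). Nle1, another partner of Mdn1, was lower at 7 days (-0.68, FDR = 1.75e-09). On the other side at 7 days were Sbds, a cytoplasmic maturation factor (0.42, FDR = 1.1e-08), and the export adaptor Nmd3 (0.33, FDR = 2.29e-07).

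Other Pol I genes were lower more often than higher at both times, as were the 5 Pol I genes above. At 48 hours 8 of 15 were lower and 1 higher (27.7% and 26.9% of all genes). At 7 days 11 were lower and 1 higher (27.9% and 28.9%). The list includes Polr2e, Polr2f, Polr2h, Polr2k and Polr2l, subunits shared with Pol II. Of these all but Polr2l were lower at 48 hours. The subunit genes Znrd1 (-0.55, FDR = 3.87e-05) and Polr2f (-0.47, FDR = 7.34e-05), both in the region lowered in 1 library, were lowest at 48 hours, and Polr2f (-0.59, FDR = 3.69e-06) and Polr1d (-0.59, FDR = 7.51e-11) at 7 days. Polr1e at 48 hours (0.09, FDR = 0.146) and Twistnb at 7 days (-0.04, FDR = 0.453), both Pol I subunit genes, did not pass. Taf1b, a subunit of the promoter selectivity factor, was the gene higher at both times (0.17, FDR = 0.00556, and 0.22, FDR = 0.000627). The RNA exosome, which trims rRNA precursors from their 3' ends, had 6 of 14 genes higher and 6 lower at 48 hours, and 2 higher and 7 lower at 7 days, with Exosc9 highest at both times (0.68, FDR = 1.72e-11, and 0.23, FDR = 4.34e-05). Next to it were Exosc1 at 48 hours (0.32, FDR = 0.00678, in the lowered region) and Exosc2 at 7 days (0.19, FDR = 0.00124). At the low end were Exosc5 (-0.34, FDR = 3.34e-06) and the cofactor C1d (-0.32, FDR = 2.26e-06) at 48 hours, and C1d (-0.50, FDR = 3.94e-09) and Exosc4 (-0.45, FDR = 7.71e-05, in the lowered region) at 7 days.

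**Figure D5:**
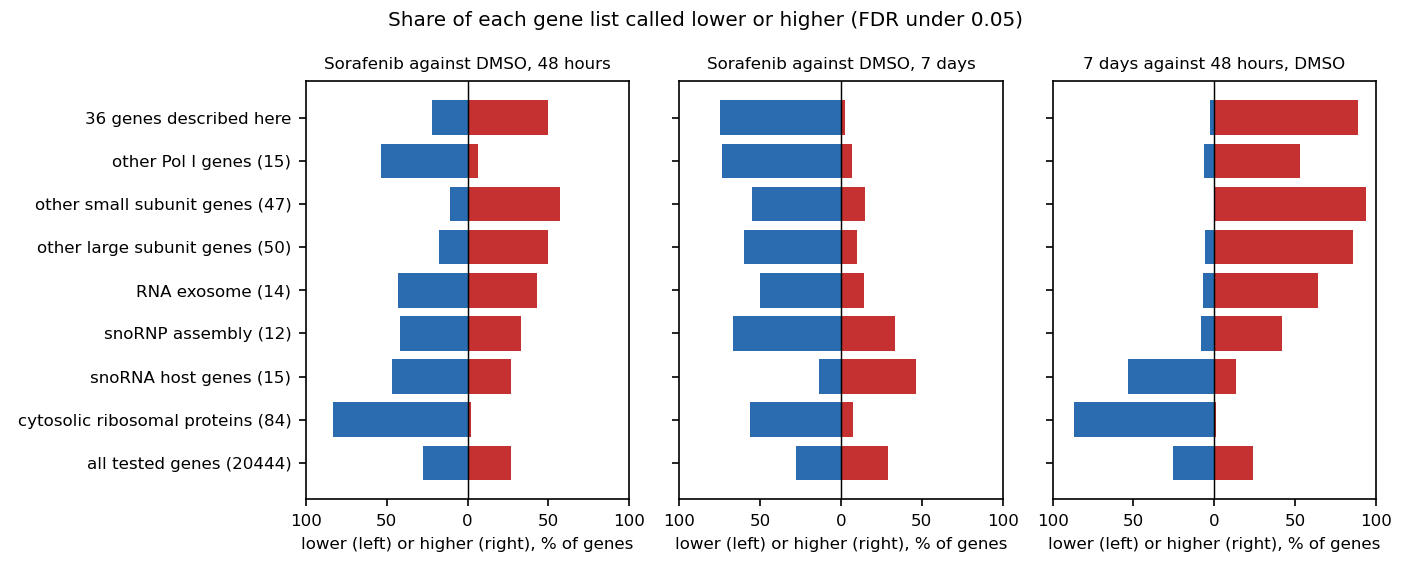
Percent of genes called lower (blue, left) and higher (red, right) at an FDR under 0.05 in the 36 genes, 7 other lists (number of genes tested in parentheses) and all tested genes, for sorafenib against DMSO at both times and for 7 days against 48 hours in DMSO. Other small and large subunit genes have bars like those of the 36, while ribosomal protein genes and snoRNA host genes point to the left over time in DMSO.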

How the data were processed

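The deposited values were raw counts per gene, whole numbers for 40840 genes in 16 libraries with no normalization. The submitters' processing notes name STAR 2.7.1a, Subread with featureCounts 2.0.6, DESeq2 1.40.2 and build GRCm39; the annotation and strand setting of the counting are not given in the sources used here. Genes with fewer than 10 counts over all samples were removed (20396 genes). The counts were fitted by edgeR 4.0.16 in R 4.3.3 (TMM, quasi-likelihood F test, 1 coefficient per group, no block), with Benjamini-Hochberg adjustment over all 20444 genes and an FDR under 0.05. Errors of log2 fold changes are SEs of the fit. Normalized counts were counts divided by the effective library size (total times TMM factor) and multiplied by its geometric mean over libraries.

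The 36 genes, the gene lists and the tests were chosen with earlier results of these data known, so no test over a list was made. Every gene of the 36 was given its log2 fold changes. Values per library were given for the lowest and highest log2 fold change at 48 hours in each role, for genes called in opposite directions at the 2 times, and for the 3 largest differences between times; of each other list, the 2 lowest and 2 highest at each time were named if their mean was 100 normalized counts or more, with Myc and Trp53. Hepatoblast, leukocyte, endothelial and stellate markers were checked as lists.

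Alternatives were DESeq2 1.42.0, limma 3.58.1 voom with quality weights, scaling by DESeq2 size factors or by total counts, a looser filter (1 count in any sample) and a stricter one (10 counts in all samples), a fold threshold (log2 of 1 in either direction), fits to only the 2 groups compared, a replicate block, and each library left out in turn. The steps were tested on simulated data. Replicates differed by more than counting error (lowest chi-square per gene 1.58, where 1 is counting error), so no 2 libraries were taken as duplicates.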

Additional observations from a re-analysis of the deposited data

Results flagged for a closer look

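Within groups of 4 libraries, a single library stood far from the other 3 for 12 of the 144 combinations of gene and group, where chance gives about 1 in 20. The gap to the nearest other library, as a share of the group's range, passed Dixon's critical value for 4 samples in each. In 8 of the 12 the library was sorafenib for 48 hours replicate 2. It was low for Rrn3 (0.886), Nolc1 (0.878), Bop1 (0.962), Wdr74 (0.914), Noc3l (0.843) and Rrp1b (0.947), all in the region where that library's counts were lower, and high for Wdr75 (0.902) and Heatr1 (0.951), which lie outside it. At 7 days the libraries with sorafenib stood apart for Rrn3 (0.949, replicate 2), Nop16 (0.864, replicate 1), Noc2l (0.861, replicate 1) and Ncl (0.900, replicate 4).

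The response to sorafenib differed between the times for 27 of the 36 genes, by the test of the interaction at an FDR under 0.05. In each of them the log2 fold change was lower at 7 days than at 48 hours (21.3% of all genes tested). As the log2 fold change at 7 days minus that at 48 hours, the 9 largest differences with all libraries were those of Ddx21 (-0.75), Rrp12 (-0.75), Rrp9 (-0.74), Utp20 (-0.72), Heatr1 (-0.68), Rrs1 (-0.67), Wdr75 (-0.60), Bop1 (-0.57) and Nop2 (-0.53). The next 9 were Ncl (-0.49), Nop16 (-0.45), Nat10 (-0.43), Polr1b (-0.40), Wdr74 (-0.38), Noc4l (-0.37), Wdr12 (-0.36), Nop58 (-0.35) and Nhp2 (-0.35). The others were Gar1 (-0.31), Ubtf (-0.30), Gnl3 (-0.29), Polr1a (-0.28), Fbl (-0.27), Nop14 (-0.24), Noc2l (-0.24), Npm1 (-0.22) and Nop56 (-0.19). Without sorafenib 48 hours replicate 2 the difference passed below 0 for 34 genes (24.9% of all genes in that fit). The DMSO libraries of each time enter these values together with the sorafenib libraries, and their part in the difference is given by the comparison of times within DMSO.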

How the results depend on the processing

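Of 3312 values of the 36 genes compared under alternatives, 3030 kept their direction and side of the threshold, 192 lost a call, 84 gained one and 6 changed sign with a call. A further 87 changed sign where neither value passed and are counted with those that kept their side. The 6 came from leaving out sorafenib 48 hours replicate 2: at 48 hours Rrn3 became 0.087, Wdr43 0.12, Nolc1 0.081 and Bop1 0.11, and the difference between times became -0.12 for Polr1c and -0.14 for Dkc1. Over all fits without 1 library these ranged from -0.12 to 0.087, -0.12 to 0.12, -0.14 to 0.081, -0.10 to 0.11, -0.12 to 0.12 and -0.14 to 0.11. Leaving out each replicate in turn gave, among the 36, 17 to 22 higher and 7 to 9 lower at 48 hours, 1 higher and 25 to 26 lower at 7 days, 25 to 34 lower and 0 higher for the difference between times, 31 to 32 higher and 1 lower over time in DMSO, and 9 to 15 higher and 4 to 8 lower over time in sorafenib. For the 153 other biogenesis genes it gave 56 to 71 higher and 36 to 46 lower at 48 hours, and 24 to 26 higher and 78 to 85 lower at 7 days. Of all genes in these fits, 24.6% to 28.5% were higher and 26.3% to 28.6% lower at 48 hours. At 7 days the shares were 27.4% to 28.0% and 26.8% to 27.1%. For the difference between times 19.3% to 24.9% were lower and 14.4% to 18.1% higher. Over time, 22.4% to 23.0% were higher and 23.9% to 24.7% lower in DMSO. In sorafenib the shares over time were 15.5% to 19.4% and 19.6% to 25.0%.

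A fold threshold (1 on the log2 scale, either direction) left 0 of the 36 genes lower or higher at either time, in the difference between times or over time in sorafenib, and 2 higher and 0 lower over time in DMSO. Of the other biogenesis genes it left 1 lower and 0 higher at each time. The count higher at 7 days was 2 with limma voom, with no filter beyond 1 count and with at least 10 counts in every sample, and 3 with only the 2 groups compared. With only the 2 groups compared, 2 were lower over time in DMSO (30.3% of all genes) and 3 over time in sorafenib (20.1%). With at least 10 counts in every sample, 17 were higher over time in sorafenib (29.1% of all genes in that fit). The cause was not tested. Scaled by total counts, the median level of the 36 was 0.045, 0.38 and 0.11 (sorafenib 48 hours, DMSO 7 days, sorafenib 7 days) in place of 0.11, 0.44 and 0.15, and with DESeq2 size factors it was 0.16 in sorafenib at 7 days. For the difference between times, scaling by total counts gave 3292 lower and 4125 higher over all genes, in place of 4353 and 3162. Among the 36, 23 were then lower and 0 higher. Over time in sorafenib this scaling gave 4 of the 36 lower and 15 higher (19.2% and 19.8% of all genes). DESeq2 called 18 higher and 9 lower at 48 hours, 1 and 26 at 7 days, and 0 and 27 for the difference between times.

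No clear pairing by replicate number was seen, though 4 libraries per group cannot exclude it. Deviations of same-numbered libraries had mean correlations from -0.11 to 0.07, against -0.02 to 0.04 for different numbers. The highest, 0.07 between DMSO and sorafenib at 7 days, stood against -0.02 for different numbers. With the number as a block 18 were higher and 9 lower at 48 hours (25.8% and 26.3% of all genes). At 7 days they were 1 and 26 (27.2% and 26.7%), and for the difference between times 0 and 27 (14.0% and 20.2%). Over time they were 33 and 1 in DMSO (22.6% and 24.0%) and 11 and 6 in sorafenib (15.7% and 20.9%). Depth was not limiting, since every one of the 36 had at least 658 counts in each library.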

Other observations

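Ribosomal protein genes, which encode the structural proteins of the ribosome, did not share the time course of the nucleolar factors. Of 84 tested, 70 were lower and 2 higher with sorafenib at 48 hours, and 47 were lower and 6 higher at 7 days. Their change between the times was above 0 for 23 and below for 4 (15.5% and 21.3% of all genes tested). In DMSO 73 were lower at 7 days than at 48 hours and 1 higher. Among genes with a mean of 100 normalized counts or more, to which lowest and highest refer throughout, Rpl37a (log2 fold change -1.21, FDR = 1.14e-11) and Rpl36a (-0.93, FDR = 2.12e-08, in the region lowered in 1 library) were lowest at 48 hours. Rpl22l1, a paralog of Rpl22 (-1.19, FDR = 1.99e-14), and Rpl37a (-1.08, FDR = 6.22e-11) were lowest at 7 days. At the high end were Rpl28 (0.42, FDR = 0.00941) and Rps27l (0.07, FDR = 0.132) at 48 hours, and the stalk proteins Rplp1 (0.29, FDR = 2.77e-07) and Rplp0 (0.28, FDR = 6.14e-07) at 7 days. Many processed copies of these genes exist, which makes their counts less certain.

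Host genes of small nucleolar RNAs, long noncoding transcripts whose introns carry the guide RNAs, also ran apart from the 36. At 48 hours 7 of 15 were lower and 4 higher with sorafenib, and at 7 days 2 were lower and 7 higher, with median log2 fold changes of -0.24 and 0.27. Snhg3 was lowest at both times among those at that level (-0.72, FDR = 1.41e-08, and -0.50, FDR = 1.05e-06). Snhg7 was lower at 48 hours (-0.61, FDR = 4.03e-05), when Snhg5 (0.52, FDR = 1.36e-08) and Snhg12 (0.44, FDR = 0.000262) were higher. At 7 days Snhg12 (0.89, FDR = 1.08e-08) and Gas5 (0.61, FDR = 2.05e-10) were highest, and Snhg4 did not pass (-0.12, FDR = 0.343). Assembly factors of the snoRNA particles had 5 of 12 genes lower and 4 higher at 48 hours, and 8 lower and 4 higher at 7 days. Tgs1, which caps small nucleolar RNAs, was lowest at both times (-0.58, FDR = 1.67e-09, and -0.55, FDR = 2.95e-09), followed by Znhit3 at 48 hours (-0.36, FDR = 3.41e-05) and Snu13 at 7 days (-0.53, FDR = 0.000181, in the lowered region). Znhit6 (0.41, FDR = 8.44e-07, and 0.25, FDR = 0.00022) and Pih1d1 (0.25, FDR = 0.000232, and 0.34, FDR = 4.66e-06) were highest. Of the marker genes, 2 of 4 tested endothelial markers were higher at both times. Their raw counts were low, at most 270 for Kdr, 18 for Stab2, 9 for Pecam1 and 6 for Lyve1 in any library. Of 2 leukocyte markers, with at most 95 counts, none passed at 48 hours and 1 was lower at 7 days. Of 4 stellate and fibroblast markers 2 were higher and 1 lower at 48 hours, and 1 higher and 3 lower at 7 days. Of 13 tested hepatoblast markers 5 were lower and 3 higher at 48 hours, and 7 lower and 4 higher at 7 days.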
